A study of Mus musculus with 4 samples.

Results

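The nuclear genes for subunits of the oxidative phosphorylation complexes were followed across the 4 arrays of the series. They were taken as the probes that are not controls and whose gene name begins with Nduf and a letter a, b, c, s or v followed by a digit, is Sdha to Sdhd, or begins with Uqcr, with Cox4 to Cox8, or with Atp5. The rule uses names and no measured value, and it found 83 of the 31829 gene names on the array: 37 of complex I, 4 of complex II, 7 of complex III, 19 of complex IV and 16 of complex V. These names had 112 probes on 121 spots, with 1 probe for 61 names and several for 22. Where a name had several, its brightest probe over the 4 arrays stood for it. The patterns also take in 4 names that are no subunit of the complexes: Cox4nb, now Emc8, Cox7a2l, which is known for its part in joining respiratory complexes, and Atp5s and Atp5sl, now Dmac2l and Dmac2. They were kept as members by the rule.

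The tissue was mouse 3D engineered muscle, in RNA labelled with Cy3 and hybridised to single-colour arrays. EPS stands for the electrical stimulation of the study, read here as electrical pulse stimulation, and was given acutely for 30 min. The 4 groups were muscle without acute EPS at 0 min, muscle without it at 5 h, and muscle at 0 min and at 5 h after EPS, each with 1 array. The labels used here give no mouse strain, age or cell source, and the title places the series in work on hypoxia and cholecystokinin. No group has a second array, so no spread between samples can be had, no test was made and no p-value is given. Differences are described beside the same values over all genes and beside the error between spots. In RNA of a whole tissue, fewer cells of a type and less RNA per cell cannot be told apart.

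Complexes I to IV make up the respiratory chain of the inner mitochondrial membrane, which passes electrons from NADH and succinate to oxygen. Complexes I, III and IV pump protons, and complex V, the ATP synthase, uses the resulting gradient to make ATP. Most subunits are encoded in the nucleus and a few in mitochondrial DNA, and complex II is wholly nuclear. Skeletal muscle carries heart- and muscle-type isoforms of several complex IV subunits, and the nuclear genes are known targets of NRF-1, of the ETS factor GABP and of the estrogen-related receptors.

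Promoters were read to show what these genes share in sequence. All 83 names matched the RefSeq gene table of GRCm38.p6, 5 of them under a newer name, and 67 had a promoter window, 6 of these more than one, for 73 windows of 250 bases up to the gene's start. The NRF-1 motif, GCGCA and GCGC with any base between, searched on both strands like the others, stood in 19.2% of member windows, in 3.7% of all 32851 windows and in 5.2% of the 21263 windows of protein-coding genes. It was found in 13 members: Ndufa5, Ndufa8, Ndufa11, Ndufb4, Ndufs5, Ndufs6, Sdha, Sdhd, Cox6a1, Atp5c1, Atp5g2, Atp5h and Atp5k. The ETS motif CCGGAAG stood in 16.4% of member windows and 9.0% of protein-coding windows, and the estrogen-related receptor motif AAGGTCA in 6.8% and 3.6%. Of the muscle motifs, CAGCTG of MyoD stood in 6 of 73 member windows (8.2%) against 12.1%, and the MEF2 motif, CTA and TAG with 4 bases between, in 1 (1.4%) against 3.1%. These differences in share were not tested. The HIF core ACGTG stood in 23.3% against 17.8%, and GCGTG in 43.8% against 33.8%. Member windows were also richer in CG pairs, with a median of 14 per window against 10 in protein-coding genes and the shares above were not adjusted for this. A match is only a run of letters and was not set against binding in this tissue.

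The windows of 6 members are shown, each 250 bases, 5′ to 3′ and ending at the base before the gene's start. Ndufs6, Cox6a1, Atp5h, Cox7a1 and Cox8b are among the members with the largest differences described further on, and Sdhd stands for complex II. Capitals mark matches to these motifs, in either orientation, and 1 GCGTG match of Sdhd lies inside its NRF-1 match. They lie at chr13:73328483-73328732 on the minus strand (Ndufs6), chr9:50603850-50604099 on the minus strand (Sdhd), chr5:115348959-115349208 on the minus strand (Cox6a1), chr11:115419920-115420169 on the minus strand (Atp5h), chr7:30183921-30184170 on the plus strand (Cox7a1) and chr7:140900447-140900696 on the minus strand (Cox8b).
Ndufs6: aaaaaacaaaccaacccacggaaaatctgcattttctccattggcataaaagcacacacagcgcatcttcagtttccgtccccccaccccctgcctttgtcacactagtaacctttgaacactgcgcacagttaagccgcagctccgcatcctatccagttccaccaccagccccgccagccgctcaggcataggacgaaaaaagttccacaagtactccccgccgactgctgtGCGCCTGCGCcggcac
Sdhd: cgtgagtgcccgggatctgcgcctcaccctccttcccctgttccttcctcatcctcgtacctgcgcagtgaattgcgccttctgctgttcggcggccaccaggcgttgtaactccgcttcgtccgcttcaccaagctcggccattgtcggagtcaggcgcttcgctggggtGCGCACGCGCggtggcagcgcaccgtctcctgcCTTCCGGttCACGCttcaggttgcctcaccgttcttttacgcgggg
Cox6a1: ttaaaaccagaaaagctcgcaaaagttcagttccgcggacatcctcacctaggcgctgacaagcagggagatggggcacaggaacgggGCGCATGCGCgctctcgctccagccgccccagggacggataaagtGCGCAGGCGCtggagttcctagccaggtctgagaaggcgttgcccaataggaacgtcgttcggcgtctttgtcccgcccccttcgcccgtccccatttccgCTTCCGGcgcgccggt
Atp5h: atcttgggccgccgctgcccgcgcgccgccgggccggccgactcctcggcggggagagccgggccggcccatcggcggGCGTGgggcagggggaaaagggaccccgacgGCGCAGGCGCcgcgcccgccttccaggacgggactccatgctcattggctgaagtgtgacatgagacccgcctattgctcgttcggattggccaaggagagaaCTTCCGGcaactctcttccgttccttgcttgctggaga
Cox7a1: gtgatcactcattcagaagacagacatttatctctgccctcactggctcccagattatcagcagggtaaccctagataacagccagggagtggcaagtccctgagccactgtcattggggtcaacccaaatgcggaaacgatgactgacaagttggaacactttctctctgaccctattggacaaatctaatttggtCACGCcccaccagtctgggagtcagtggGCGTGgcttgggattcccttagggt
Cox8b: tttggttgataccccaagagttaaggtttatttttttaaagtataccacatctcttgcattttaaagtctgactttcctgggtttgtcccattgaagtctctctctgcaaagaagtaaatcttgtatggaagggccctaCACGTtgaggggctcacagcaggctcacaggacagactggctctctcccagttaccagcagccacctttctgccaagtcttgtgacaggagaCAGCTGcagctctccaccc
The window of Ndufs6 held the match GCGCCTGCGC from 16 to 7 bases before the start. The window of Cox6a1 held GCGCATGCGC, which matches on both strands, from 162 to 153 bases before the start and GCGCAGGCGC from 117 to 108. Neither window of the muscle-type isoforms Cox7a1 and Cox8b held an NRF-1 or ETS match in these 250 bases. Cox7a1 had GCGTG on each strand, and Cox8b had CAGCTG from 19 to 14 bases before the start. These 2 windows held 4 and 1 CG pairs, against 14 to 29 in the other windows shown.

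The array measures each gene with probes of 60 bases, and the probes of an isoform pair differ in sequence. The probe of Cox7a1, the muscle-type subunit 7a, and that of Cox4i1, the common form of subunit 4, are shown because the isoform results rest on such probes. The files place the first at chr7:30970337-30970948 and the second at chr8:123197924-123197983, both on the plus strand of mm9, and the 612 bases covered by the first are more than its length.
Cox7a1: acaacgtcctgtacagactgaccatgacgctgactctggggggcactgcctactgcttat
Cox4i1: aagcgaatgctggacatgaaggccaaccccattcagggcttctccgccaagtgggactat

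Almost all members gave a clear signal. On all 4 arrays, 81 of 83 (97.6%) were well above background by the scanner's flag, against 18070 of all gene names (56.8%). The 2 others, Cox7b2 and Cox8c, both known from testis, were well above background on no array. The level of a gene is its processed signal on the log2 scale, counted from the 75th percentile of its array, so 0 marks that percentile. By this scale 76 of the 83 members lay above 0 on all 4 arrays, against 7746 of all names (24.3%). The members at lower levels included Ndufa4l2, Cox4i2, Cox6b2, Atp5s and Cox4nb. Probes differ in how strongly they bind, so levels of different genes give no order of abundance.

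In complex I the mean level over the 4 arrays ran from -2.72 for Ndufa4l2, a paralog of Ndufa4 known as a HIF-1 target, to 6.42 for Ndufa13, a membrane-arm subunit. The middle member was Ndufc1, at 4.70, 4.76, 4.59 and 4.4, in the order no EPS at 0 min, EPS at 0 min, no EPS at 5 h and EPS at 5 h, which is kept below. In complex II the range was from 3.25 for Sdhc, a membrane anchor, to 4.67 for Sdhb, the iron-sulfur subunit. In complex III it was from 2.49 for the core subunit Uqcrc1 to 5.84 for the hinge protein Uqcrh. In complex IV the measured members ran from -3.51 for Cox4i2 to 6.5 for Cox6a1, and in complex V from -3.70 for Atp5s to 6.63 for Atp5b, the catalytic beta subunit. In each complex the median member lay well above the 75th percentile, while 7 of the 83 members, 5 of them in complex IV, were not above it on all arrays.

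**Figure D1:**
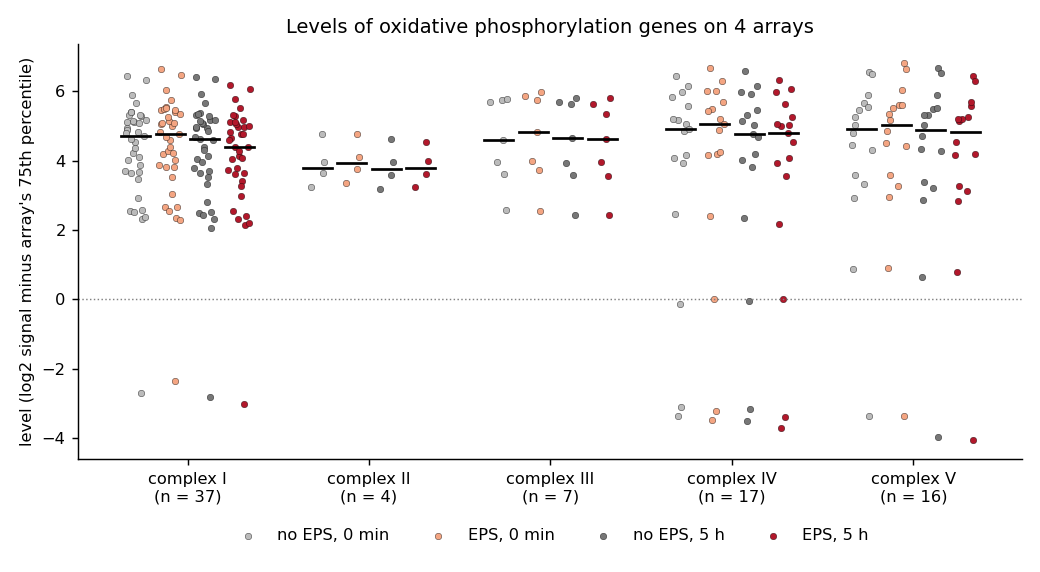
Levels of the 81 members well above background on all 4 arrays (log2 scale, counted from the 75th percentile of each array, the dotted line), by complex; each point is a gene on 1 array and each bar the median of its complex on that array. In every complex the EPS 0 min array has the highest median, from 3.93 in complex II to 5.06 in complex IV.

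The 4 arrays differed little for a given member. The median member spanned 0.26 log2 units from its lowest to its highest array, against 0.44 for all genes well above background on all 4, and the widest span was 0.70. These spans are not matched in level, since 9831 genes outside the set lie below level 0, against 5 of the 81 members. The span of bright genes alone was not taken. Of the 81 members, 70 had their highest level on the EPS 0 min array and 62 their lowest on the EPS 5 h array, with 54 having both. Over all genes these shares were 30.0%, 38.7% and 16.9%. The count of members with both was 24 under quantile normalization and 25 under cyclic loess, which remove shifts that depend on brightness, so this order rests in part on the scaling.

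Bright genes as a class differed between the arrays. Among genes outside the set, the median difference between EPS and no EPS at 0 min was -0.03 below level 0, 0.07 at levels 2 to 4, 0.10 at 4 to 5, 0.13 at 5 to 6 and 0.17 above 6. At 5 h it was -0.06, 0.00, -0.06, -0.09 and -0.16 in the same bins, and from 0 min to 5 h after EPS it was -0.12, 0.00, -0.09, -0.17 and -0.28. Most members lie in the upper bins, with 75 of the 81 at level 2 or more. Each comparison is therefore set beside the 4183 other genes at level 2 or more as well as beside all genes. These are not matched to the members in level: 2683 of them lie at levels 2 to 4, against 22 of the 75 members. Shares past 1.2-fold and 2-fold are given over all genes except where stated. Of the other genes well above background on all 4 arrays, 9831 lie below level 0. At levels 4 to 5 members and other genes had medians of 0.08 and 0.10 for EPS at 0 min. They had -0.12 and -0.06 for EPS at 5 h, and -0.25 and -0.09 from 0 min to 5 h after EPS. At levels 5 to 6 these pairs were 0.14 and 0.13, -0.12 and -0.09, and -0.28 and -0.17. The signal at the 75th percentile was itself 1368 (no EPS, 0 min), 1096 (EPS, 0 min), 1287 (no EPS, 5 h) and 1498 (EPS, 5 h). At that percentile the EPS 0 min array was the dimmest and the EPS 5 h array the brightest before scaling.

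**Figure D2:**
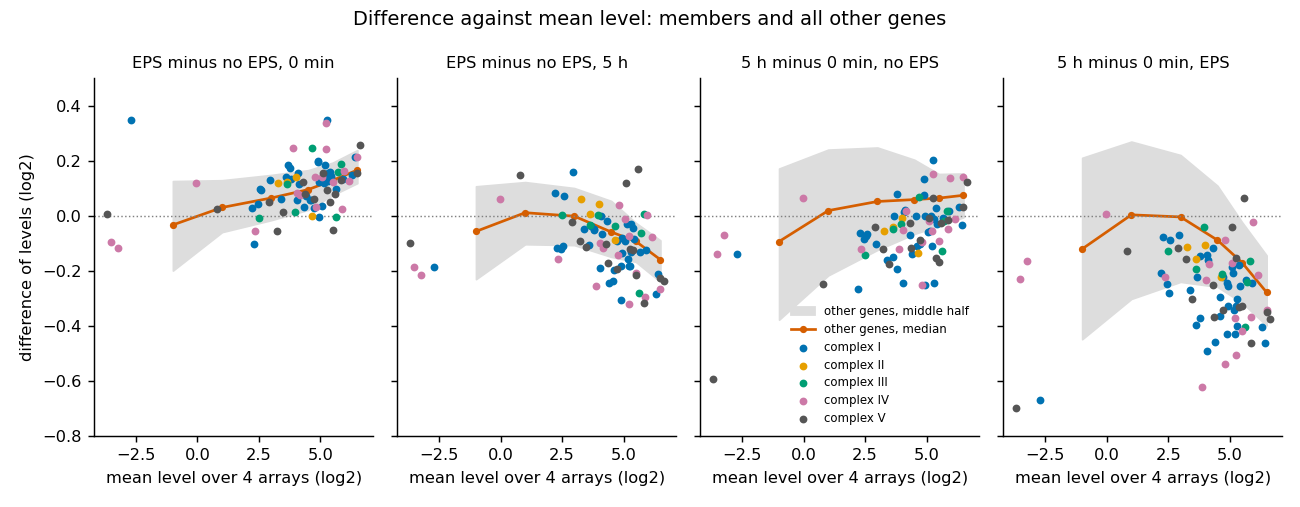
Difference of levels (log2) against mean level over the 4 arrays for the 81 measured members, coloured by complex, with the median (line) and middle quartiles (grey) of all other genes in bins of level; 1 panel per comparison. The line of the other genes reaches 0.17 at the bright end for EPS at 0 min and -0.28 from 0 min to 5 h after EPS, and members follow it at the first and lie mostly under it at the second.

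The error between spots was of the size of many of these differences. Probes printed 10 times gave a median SD of a difference between 2 arrays of 0.06 to 0.07 at level 2 or more, with a 95th percentile of 0.10 to 0.11 over 51 probes. Over all 270 to 273 such probes the 95th percentile was 0.26 to 0.33, which bears on dim members such as Ndufa4l2, Atp5s, Cox4i2 and Cox6b2. Uqcrc2, a core subunit of complex III, was the only member printed 10 times, at levels 3.97, 3.99, 3.94 and 3.95 with spot SDs of 0.031, 0.042, 0.017 and 0.030. Its 4 levels spanned 0.045, little more than the SD of its single spots. Each level is a mean over these spots, so its own error is smaller than that SD. The error between spots covers spots of 1 labelled RNA sample and says nothing of the spread between muscles.

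The first comparison sets the array with EPS beside the array without it at 0 min, the end of the 30 min. Members were slightly higher with EPS at 0 min, by a median of 0.12 log2 units, against 0.02 over all 18552 genes measured. A difference above 0 was seen in 72 of 81 members, where 54.9% of all genes had one. At least 1.2-fold higher were 3 members, where 10.6% of all genes were, and none was 1.2-fold lower, where 12.4% were. No member differed by 2-fold, against 1.34% of all genes. The medians by complex were 0.13 (I), 0.12 (II), 0.12 (III), 0.12 (IV) and 0.07 (V). Other genes at level 2 or more had a median of 0.09, and 77.1% of them were above 0. Quantile normalization brought the members' median to 0.00, with 41 above 0 and 38 below, and cyclic loess to 0.01, with 45 above and 36 below.

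The 3 members past 1.2-fold belong to complexes I and IV. Ndufs6, a zinc-binding subunit of the NADH arm of complex I, was at 5.11, 5.46, 5.31 and 5.13, so it was 1.27-fold higher with EPS at 0 min (0.35). Cox6c, a small subunit of complex IV, was at 5.16, 5.5, 5.31 and 4.99 (0.34 at 0 min). Ndufa4l2 was at -2.69, -2.34, -2.83 and -3.01 (0.35 at 0 min), so its highest level was again on the EPS 0 min array. Each of them lost 1.2-fold under some alternative: Ndufs6 at 0.23 and Cox6c at 0.20 under quantile normalization, where Ndufa4l2 stood at 0.40, and Ndufa4l2 at 0.26, just short of it, under normexp background correction. Next came Atp5b, at 6.56, 6.82, 6.69 and 6.45 (0.26 at 0 min), which stood at 0.09 under quantile normalization. At the other end were Cox6b2 (-0.12), Ndufs8 (-0.10), Cox4i2 (-0.10) and Cox6b1 (-0.05).

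The second comparison does the same at 5 h. Members were slightly lower in muscle after EPS, by a median of -0.10, against -0.03 over 18506 genes. A difference below 0 was seen in 66 of 81 members, where 56.4% of all genes had one, and above 0 in 15, where 43.6% did. At least 1.2-fold lower were 7 members, where 15.8% of all genes were, and none was 1.2-fold higher, where 8.84% were. No member differed by 2-fold, against 1.22% of all genes. The medians were -0.11 (I), 0.02 (II), -0.03 (III), -0.14 (IV) and -0.12 (V), and 3 of the 4 complex II genes were above 0. Other genes at level 2 or more had a median of -0.04. The members' median was -0.06 under both quantile normalization (25 above 0 and 56 below) and cyclic loess (27 and 54).

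The 7 lower members came from complexes I, III, IV and V. They were Cox6c (-0.32), Atp5g3 (-0.32), Ndufa5 (-0.31), Cox8a (-0.30), Ndufb7 (-0.29), Uqcr, now Uqcr11 (-0.28), and Cox6a1 (-0.27). Atp5g3, which encodes subunit c of the rotating ring of ATP synthase, was at 5.91, 6.04, 5.89 and 5.57. Ndufa5, a subunit of the arm of complex I that reaches quinone, was at 4.89, 5.09, 4.97 and 4.66. In both genes the EPS 5 h array was the lowest of the 4 and the other 3 lay within 0.20 of each other. Of the 7, Cox6c (-0.28) and Ndufa5 (-0.27) stayed past 1.2-fold under quantile normalization and none did under cyclic loess. The highest were Atp5h (0.17), Ndufa9 (0.16), Atp5sl (0.15) and Atp5a1 (0.12). Atp5h, subunit d of the peripheral stalk, was at 5.54, 5.62, 5.51 and 5.68, so by this probe the EPS 5 h array was its highest, and under quantile normalization its difference was 0.27. Its second probe, at 5.49, 5.43, 5.31 and 5.31, differed by 0.00 at 5 h, so the higher level rests on 1 probe.

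**Figure D3:**
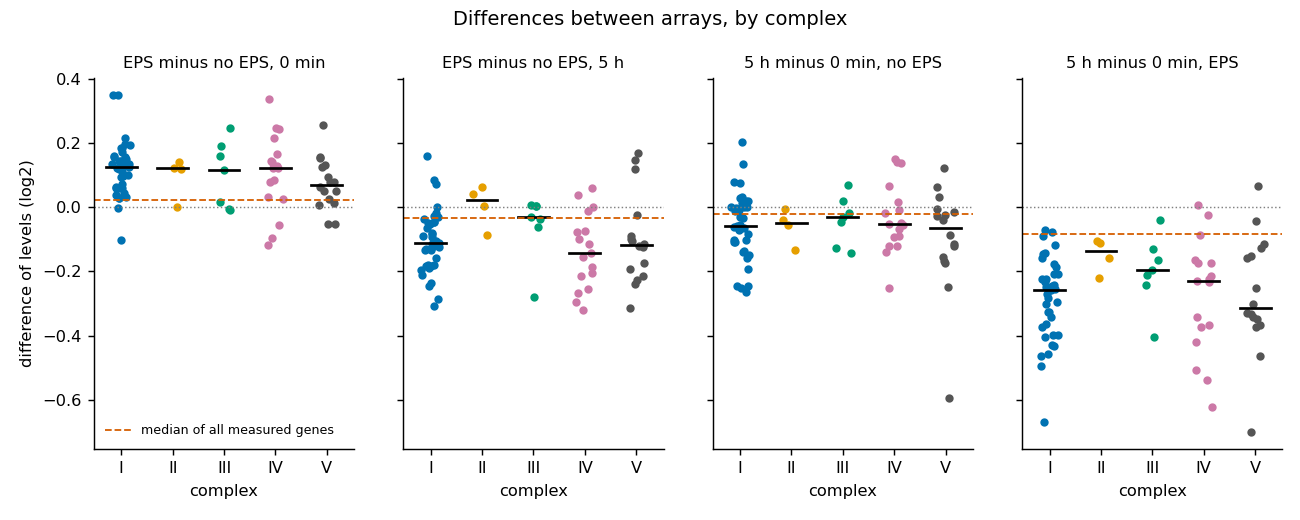
Difference of levels (log2) for the 81 measured members in the 4 pairwise comparisons, by complex; points are genes, black bars the median of a complex and the dashed line the median of all measured genes. Points lie mostly above 0 for EPS at 0 min (72 of 81), mostly below at 5 h (66 of 81) and nearly all below from 0 min to 5 h after EPS (79 of 81).

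The 2 EPS differences use 4 different arrays. With EPS, 58 of 81 members (71.6%) were above the control at 0 min and below it at 5 h, against 26.6% of all 18070 genes and 43.2% of other genes at level 2 or more. Cox6c was the only member past 1.2-fold in both, and 237 of the 18070 genes were so in the same order, a like share. Under quantile normalization and under cyclic loess alike 26 members (32.1%) had this order, against 19.8% and 19.4% of all genes. The difference at 5 h minus that at 0 min had a median of -0.19 over the members and -0.05 over all genes, with 75 of 81 members below 0, where 58.4% of all genes were, and 6 above, where 41.6% were. No member reached 2-fold by this measure, against 1.99% of all genes. Other genes at level 2 or more had a median of -0.12, and the members' median was -0.06 under quantile normalization and -0.05 under cyclic loess. At levels 4 to 5 members and other genes had medians of -0.25 and -0.16, and at levels 5 to 6 of -0.22 and -0.23. The lowest values were those of Cox6c (-0.66), Ndufa4l2 (-0.53), Ndufs6 (-0.53) and Ndufa5 (-0.50), and under quantile normalization they were -0.49, -0.52, -0.35 and -0.35. The highest was that of Atp5sl (0.12), with Atp5h (0.09) and Ndufa9 (0.03) also above 0.

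The third comparison follows muscle without EPS from 0 min to 5 h. The members were nearly level, with a median of -0.05 against -0.02 over 18446 genes, 22 above 0, where 47.3% of all genes were, and 59 below, where 52.7% were. Only 2 were at least 1.2-fold lower, where 25.8% of all genes were, and none was higher, where 19.8% were. No member differed by 2-fold, against 4.71% of all genes. The median was -0.06 in complex I, -0.05 in II, -0.03 in III, -0.05 in IV and -0.06 in V. Other genes at level 2 or more went the other way, with a median of 0.06 and 38.8% below 0. The members' median was -0.12 under quantile normalization (8 above 0 and 73 below) and -0.11 under cyclic loess (9 and 72).

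The lowest was Atp5s. This gene, which is no ATP synthase subunit, was at -3.38, -3.37, -3.97 and -4.07, so both 5 h arrays were lower than both 0 min arrays. It was 1.51-fold lower without EPS and 1.62-fold lower after it. Cox8b (-0.25) and Ndufs7 (-0.25) were also among the lowest. The highest were Ndufs6 (0.20), Cox6c (0.15), Cox6a1 (0.14) and Cox5a (0.14).

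The fourth comparison follows muscle after EPS from 0 min to 5 h, and it held the largest differences. Members were lower at 5 h by a median of -0.24, against -0.08 over 18435 genes, and 79 of 81 were below 0, where 57.7% of all genes were, and 2 above, where 42.3% were. At least 1.2-fold lower were 35 members (43.2%), where 33.4% of all genes were, and none was higher, where 21.4% were. No member differed by 2-fold, against 6.06% of all genes. The medians were -0.26 (I), -0.14 (II), -0.20 (III), -0.23 (IV) and -0.32 (V), and every measured member of complexes I, II and III was below 0. Other genes at level 2 or more had a median of -0.08, with 59.0% below 0 and 27.1% at least 1.2-fold lower. The median was -0.17 under quantile normalization (5 above 0 and 75 below) and -0.16 under cyclic loess (5 and 76). The members past 1.2-fold lower were then 21 and 20 of 81, and the shares of all genes 27.3% and 27.0%, so the members' share of such genes was then near the background.

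Both arrays of this comparison also enter the EPS differences, so its values are not independent of those. After Atp5s (-0.70) and Ndufa4l2 (-0.67) the lowest members were Cox7a1 (-0.62) and Cox8b (-0.54), the muscle-type isoforms of subunits 7a and 8. The largest in complex I after Ndufa4l2 were Ndufa6 (-0.49), Ndufa13 (-0.46) and Ndufa3 (-0.46), and in complex V after Atp5s Atp5g3 (-0.46) and Atp5b (-0.37). Atp5h (0.07) and Cox4nb (0.01) were the 2 members above 0, though the second probe of Atp5h gave -0.12 and the mean of its probes -0.03, and Cox5a (-0.02) and Uqcrc2 (-0.04) came next. In complex II, Sdha, the flavoprotein, was at 3.64, 3.76, 3.6 and 3.6, and Sdhd, a membrane anchor, at 3.96, 4.10, 3.95 and 3.99. All 4 complex II genes had their highest level on the EPS 0 min array.

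Skeletal muscle markers were also lower in this comparison. Of 16 markers measured on all 4 arrays, 14 were below 0 from 0 min to 5 h after EPS and 13 were at least 1.2-fold lower, with a median of -0.41. Among all genes 57.7% were below 0 and 33.4% at least 1.2-fold lower. Their summed signal, relative to the 75th percentile, was 1087, 1269, 1023 and 943, in the order used above. Their medians were 0.16 for EPS at 0 min, -0.09 for EPS at 5 h and -0.15 from 0 min to 5 h without EPS. Among them Tnnc2, fast troponin C, was at 7.56, 7.86, 7.59 and 7.24, and Myh7, the slow myosin heavy chain, at 7.12, 7.51, 7.07 and 6.99. Most fibroblast markers were lower still, with a median of -0.66 over the 6 of 7 that were measured. Of these 5 were below 0, while Pdgfra was higher at 5 h, by 0.46 after EPS and 0.72 without it. The list's summed signal of 243, 265, 222 and 194 leans on its brightest gene, Dcn, at 7.41, 7.63, 7.44 and 7.28. Thy1 was not well above background. The part of either in the members' differences was not tested.

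Several complex IV subunits exist as a muscle- or heart-type form and a common form. Cox7a1, the muscle form of subunit 7a, was at 3.94, 4.19, 3.82 and 3.56, while Cox7a2, its common form, was at 4.08, 4.16, 4.03 and 3.93. From 0 min to 5 h after EPS Cox7a1 was 1.54-fold lower and Cox7a2 1.18-fold lower, a gap of -0.39 log2 units that was -0.38 under quantile normalization and -0.39 under cyclic loess. Without EPS the gap over time was -0.07. Cox8b, the muscle form of subunit 8, was at 4.92, 5.06, 4.67 and 4.52, and Cox8a at 5.97, 6.0, 5.92 and 5.63. The gap over time was -0.20 without EPS and -0.17 after it. Cox6a2, the muscle form of subunit 6a, was at 5.56, 5.69, 5.47 and 5.27, and Cox6a1 at 6.44, 6.66, 6.58 and 6.32. Here the gap was -0.23 without EPS and -0.08 after it. In all 3 pairs the muscle form was lower relative to its common form at 5 h than at 0 min, on both pairs of arrays and with the same sign under quantile normalization and cyclic loess. The gaps of -0.07 for Cox7a1 without EPS and -0.08 for Cox6a2 after it are no larger than spot error could give. For 1 bright gene the median spot SD of a difference was 0.06 to 0.07, and a gap joins the errors of both genes. For EPS against no EPS the gaps had no shared sign, at 0.16, 0.12 and -0.09 at 0 min and -0.16, 0.15 and 0.06 at 5 h for Cox7a1, Cox8b and Cox6a2.

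**Figure D4:**
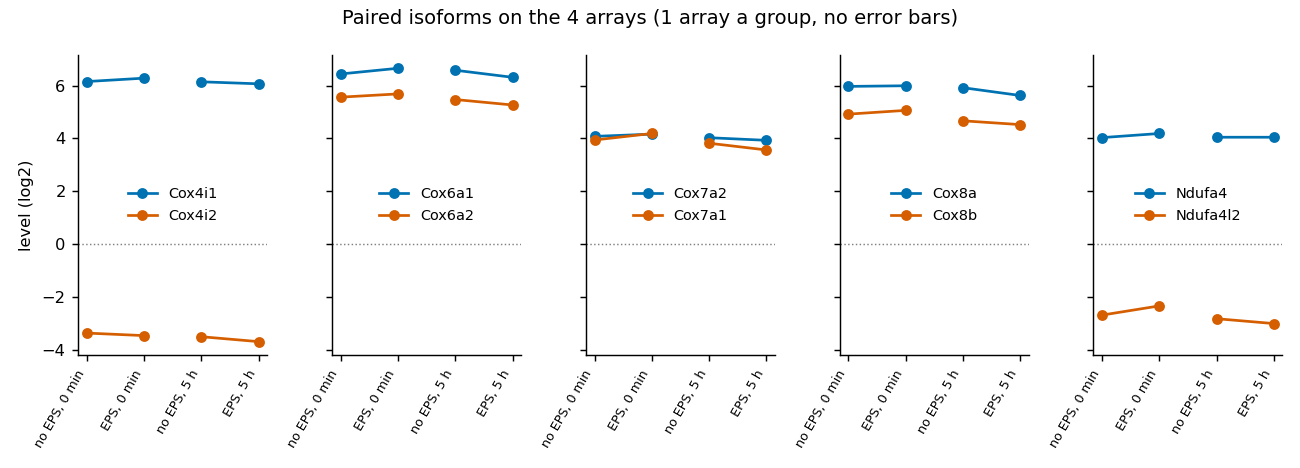
Levels (log2) of 5 isoform pairs on the 4 arrays, 1 array per group and no error bars; lines join no EPS to EPS at the same time, and blue is the common form. Levels are set side by side over arrays, not between probes. Cox7a1 goes from 4.19 on the EPS 0 min array to 3.56 on the EPS 5 h array, and Cox7a2 from 4.16 to 3.93.

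The oxygen-related forms were dim. Cox4i2, the form of subunit 4 known for hypoxia-linked expression in lung, was at -3.37, -3.47, -3.51 and -3.70, and Cox4i1 at 6.16, 6.28, 6.15 and 6.07. The EPS differences of Cox4i2 were -0.10 at 0 min and -0.19 at 5 h, and normexp background correction turned the first to 0.02. Ndufa4, now known as a complex IV subunit, was at 4.03, 4.19, 4.05 and 4.05, and its differences were smaller than those of Ndufa4l2 in all 4 comparisons. Cox6b2, known from testis, was at -3.11, -3.23, -3.18 and -3.39, and Cox6b1, its common form, at 2.46, 2.41, 2.34 and 2.19. For the c ring, Atp5g2 was at 6.5, 6.66, 6.53 and 6.31, and Atp5g1 had no probe of that name.

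Probes of the same gene gave like values. Over the 22 names with several probes the median spread of a difference was 0.09 (EPS at 0 min), 0.08 (EPS at 5 h), 0.08 (time without EPS) and 0.05 (time after EPS). Opposite signs were seen for 5, 4, 9 and 1 names, none with probes beyond 0.1 in both directions. The widest spreads were 0.23 for Uqcrb (EPS at 0 min), 0.30 for Uqcrq (EPS at 5 h), 0.21 for Ndufb11 (time without EPS) and 0.27 for Cox7c (time after EPS). For Uqcrq the 2 probes gave -0.06 and -0.36 for EPS at 5 h, which puts it on either side of 1.2-fold. Cox7c had a probe near 4.2 and another near -3.8, which shows how far levels of 1 gene can lie apart. The gene table lists pseudogenes named after 9 members, Atp5c1, Atp5f1, Atp5k, Atp5l, Cox5b, Cox7c, Ndufa12, Ndufs5 and Uqcrh, whose probes could also bind such copies.

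Other genes of the pathway were read from lists. For this and the lists below, the shares of all genes above 0 were 54.9%, 43.6%, 47.3% and 42.3% in the 4 comparisons. Of 14 subunits and carriers that the name patterns miss, 13 were measured, with medians of 0.09 (EPS at 0 min, 12 above 0), -0.03 (EPS at 5 h, 6 above), 0.04 (time without EPS, 9 above) and -0.07 (time after EPS, 5 above). Cyc1, the cytochrome of complex III, was at 4.67, 4.84, 4.83 and 4.77, and the adenine nucleotide carrier Slc25a4 at 6.09, 6.37, 6.21 and 6.09. Gpd2, which feeds electrons from glycerol phosphate into the chain, was at -0.70, -0.65, -0.12 and 0.75, the only gene of this list past 2-fold, from 0 min to 5 h after EPS. Slc25a5, a second adenine nucleotide carrier, was at 3.25, 3.26, 3.87 and 3.94, higher on both 5 h arrays.

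Mitochondrially encoded subunits had a wider scatter. All 12 on the array were measured, and their medians were 0.00 (6 above 0), -0.16 (2 above), -0.14 (3 above) and -0.27 (1 above) in the same 4 comparisons. COX2, a catalytic subunit of complex IV, was at 6.85, 7.15, 7.01 and 6.54, so it was highest and lowest on the same arrays as most nuclear members. Its differences were 0.31 for EPS at 0 min and -0.61 from 0 min to 5 h after EPS. Other genes above level 6 had medians of 0.17 and -0.28 in these 2 comparisons. ND1, a complex I subunit, was at 3.94, 3.19, 3.30 and 3.36, highest without EPS at 0 min. No probe was named ATP6, and the probe named ATP8, counted among the 12, is described in the files as subunit a, the product of ATP6.

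Assembly factors and the tricarboxylic acid cycle were measured for 27 of the 30 assembly factors on the array and all 17 cycle genes. The assembly factors' medians were 0.07 (21 above 0), 0.00 (15 above), -0.04 (12 above) and -0.04 (11 above). From 0 min to 5 h after EPS, 10 of the 27 were at least 1.2-fold lower, where 33.4% of all genes were. Another 4 were at least 1.2-fold higher, where 21.4% of all genes were. The list's median levels were near 0.9, where other genes also had median differences near 0. Higd1a, known for hypoxia-linked expression and for binding complex IV, was at 3.68, 4.01, 3.54 and 3.37, with 0.33 for EPS at 0 min and -0.65 from 0 min to 5 h after EPS. The cycle's medians were 0.09 (14 above), -0.03 (4 above), 0.03 (10 above) and -0.14 (5 above), with citrate synthase (Cs) at 5.42, 5.56, 5.52 and 5.48.

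Regulators of mitochondrial biogenesis went both ways. Their medians over 13 measured genes were 0.08 (8 above 0), 0.10 (9 above), 0.17 (8 above) and 0.11 (8 above). Ppargc1a, which encodes the coactivator PGC-1 alpha, was at -1.0, -1.53, -2.82 and -3.32, so both 5 h arrays were more than 2-fold under both 0 min arrays. It was 0.53 lower with EPS at 0 min and 0.51 lower at 5 h on the log2 scale. Tfam, the packaging factor of mitochondrial DNA, was at 1.51, 1.58, 1.78 and 2.17, highest on the EPS 5 h array. Nrf1 was at 0.01, -0.04, 0.31 and 0.42, and Esrra, the estrogen-related receptor alpha, at 2.16, 2.43, 2.33 and 2.34.

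The arrays carry the marks of skeletal muscle. All 16 of its markers were well above background, with median levels of 5.61, 5.81, 5.53 and 5.62. The labelling protocol names leukocytes as the source of RNA, whereas titles, tissue field and extraction protocol name muscle. Of 10 leukocyte markers 6 were well above background on all 4 arrays, near the 56.8% of all gene names. Among the 6 were Itgam and Cd14, while Ptprc and Lyz2 were well above background on none. The summed signal of the list was 9.46, 8.77, 9.55 and 10.67. Counts of the other lists below are to be set beside the same 56.8%. Adipocyte (2 of 5 measured), endothelial (2 of 5), neuron and Schwann (3 of 5 on the array) and heart markers (3 of 5) were mostly dim, with summed signals of at most 0.96, 3.41, 0.94 and 3.1, and with Adipoq, Cidec, Cdh5, Tek and Myl7 well above background on no array. Their medians from 0 min to 5 h after EPS were -0.40, -0.52, -0.31 and -0.59, and that of the leukocyte markers was 0.13. Their part in the members' values was not tested.

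The processing bears on these small differences. Median centring and the mean of all probes gave members' medians close to the reported ones in all 4 comparisons. Normexp background correction gave 0.06 for EPS at 0 min in place of 0.12, with all genes at 0.04, and -0.09, -0.08 and -0.21 in the others. Without any scaling the members' median was -0.20 for EPS at 0 min, 0.12 for EPS at 5 h, -0.14 over time without EPS and 0.21 over time after EPS, while all genes stood at -0.30, 0.19, -0.11 and 0.37. Relative to the median of all genes the members' median stood at 0.10, -0.07, -0.03 and -0.16, with or without that scaling. These gaps could not differ, since that scaling shifts every gene of an array by the same amount. Under quantile normalization these gaps were 0.00, -0.06, -0.10 and -0.16.

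**Figure D5:**
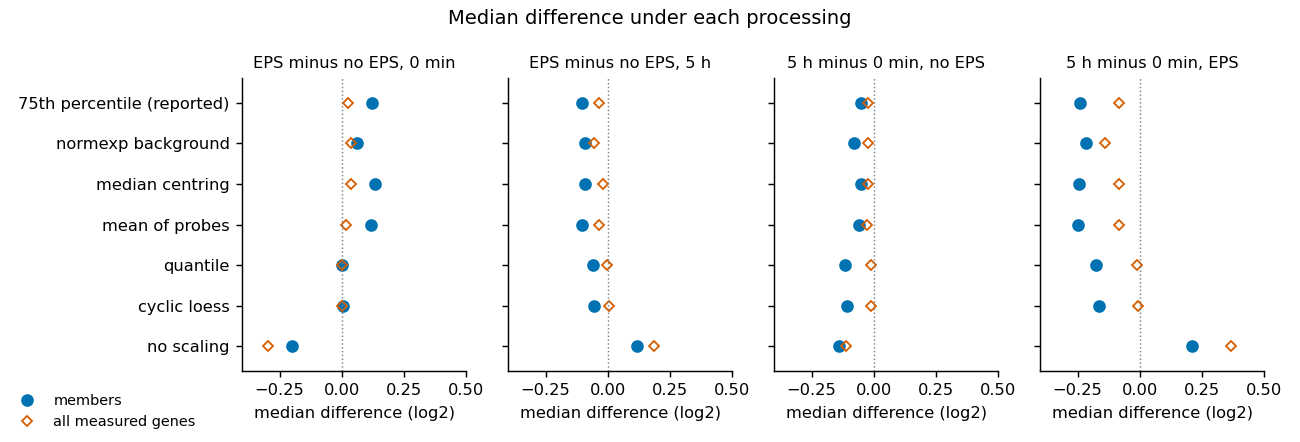
Median difference (log2) of the 81 measured members (filled) and of all measured genes (open) in each pairwise comparison under different ways of processing. From 0 min to 5 h after EPS the members lie left of all genes under each of them, with gaps from -0.17 to -0.08, while for EPS at 0 min the 2 coincide near 0 under quantile normalization and cyclic loess.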

How the data were processed

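Total RNA of mouse 3D engineered muscle was measured on 4 single-colour Agilent arrays of 1 slide, 1 per group. Per the labels' protocols, RNA was copied with oligo-dT primers and labelled with Cy3. The deposited values are spot intensities from Feature Extraction 10.7.3.1, per the file headers, corrected within the array for background and spatial trends. Spots that did not exceed background hold a surrogate. The deposited value table held the same intensities, equal within 1e-05 for 44397 of 44397 spots on each array, and so is on a linear scale with no centring or scaling. The medians of its columns were 75.2, 64.0, 57.6 and 69.4 (no EPS at 0 min and at 5 h, EPS at 0 min and at 5 h). Its direction is that of signal. Probe positions are those of the array design on mm9, and the annotation of that build was not used here.

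Each array had 43020 spots that are not controls, with 0 saturated, and the 112 to 141 outliers per array were dropped. Levels are processed signals in log2 units, counted from the 75th percentile of each array. Spots of a probe were averaged, and the brightest probe stood for a gene name. A gene was measured where its probe was well above background on every array compared. Differences were counted past 1.2-fold and 2-fold in place of testing. The number of arrays limits the precision. Alternatives were normexp background correction (limma 3.58.1 in R 4.3.3, offset 50), quantile normalization, median centring, looser background filters, the mean of all probes and the deposited table. Cyclic loess and no scaling were added after seeing the data. Python 3.11.15 with pandas 2.3.3 and numpy 2.4.6 did the rest, and the steps were tested on simulated data.

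Named in full were, in each complex, the highest, lowest and middle member by mean level; in each comparison, the 4 largest differences per direction; the isoform pairs; and members whose probes disagreed. From the lists at most 2 genes per direction and comparison are named, besides genes given for their role, which were chosen after their values were seen. Members and lists were chosen with earlier results of these data known. Some genes of the set and of the lists are not reported here.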

Additional observations from a re-analysis of the deposited data

Results flagged for a closer look

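The EPS difference of the members had opposite signs at the 2 times, with medians of 0.12 at 0 min and -0.10 at 5 h, and the median of the 5 h minus the 0 min difference was -0.1925. With 1 array per group this difference between times was not tested, and the median over all genes was -0.05.

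Cox6c, a small subunit of complex IV, was past 1.2-fold in opposite directions, at 0.34 (0 min) and -0.32 (5 h), and the 5 h minus the 0 min difference was -0.6571. This was not tested either. Under quantile normalization it was -0.49 and under cyclic loess -0.48.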

How the results depend on the processing

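No paired analysis was possible because each group has 1 array, and for the same reason no replicate could be left out. Of the members' medians and counts, none moved under median centring, the mean of all probes, the filter of at least 1 array well above background or the deposited table, where a count moves when it changes by over 1.5 times and a median when it changes by more than the spot SD. That filter and the deposited table could not move them: the filter keeps the same 81 members and the table holds the same intensities. Normexp gave 5 members 1.2-fold lower over time without EPS. Without a background filter 1 member passed 2-fold for EPS at 0 min, 1 was 1.2-fold higher over time without EPS and 1 passed 2-fold over time after EPS. Quantile normalization gave a median of 0.001218 with 1 member higher for EPS at 0 min, 1 higher and 2 lower for EPS at 5 h, 8 lower over time without EPS, 21 lower after EPS, and a median of -0.06159 for the difference of EPS effects. Cyclic loess gave 0.005673 with 1 higher, 0 lower for EPS at 5 h, 7 lower, 20 lower and -0.05293 in the same order. With no scaling the medians were -0.1999 (0 higher, 23 lower), 0.1156 (8 higher, 0 lower), -0.139 (8 lower), 0.2093 (27 higher, 0 lower) and, for the difference of EPS effects, 0.3474. Most members then changed sign, with 72 of 81 above 0 over time after EPS and 80 of 81 in the difference of EPS effects. Among the 51 values of named genes, 7 that were past 1.2-fold in the reported setting had the opposite sign. They were Atp5g2 (0.1034), Cox6a1 (0.1096), Cox6a2 (0.03228) and Cox8a (0.08413) over time after EPS. In the difference of EPS effects they were Ndufa4l2 (0.006981), Ndufa5 (0.03563) and Ndufs6 (0.0103). With no scaling each value carries the arrays' overall brightness, and the cause of the other changes was not tested. Of 51 values of named genes, 24 moved by more than the spot SD under quantile normalization, and Cox5a over time after EPS turned from -0.02 to 0.18 (0.09 under cyclic loess). Signal over background limits Cox7b2 and Cox8c, which have no measured difference.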
